A study of Mus musculus with 9 samples.

Results

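Matriptase is a serine protease anchored in the membrane of epithelial cells, and the genes described here are 10 members of the system around it in HC11 cells, a mammary epithelial cell line cloned from BALB/c mouse COMMA-1D cells. They are the proteases St14 (matriptase), Prss8 (prostasin), Prss22 and Prss23, the inhibitors Spint1 and Spint2, the adhesion protein Epcam, the protease-activated receptors F2r and F2rl1, and F3 (tissue factor). They were picked out by gene symbol from 19230 genes with an annotated transcript cluster, and all 10 were among the 17968 genes tested. Epcam is listed under its older symbol Tacstd1 and was matched through its Entrez gene ID. Expression was measured on Affymetrix Mouse Gene ST arrays in 3 samples of HC11 cells stably transfected with FoxF1, 3 samples of HC11 cells stably transfected with NFI-C2 and 3 samples of HC11 cells labelled wild type, with 1 array per sample. Both constructs encode transcription factors, FoxF1 of the forkhead family and NFI-C2 of the nuclear factor I proteins, and for NFI-C2 the methods name a stable form, NFI-C2S. The methods call the control cells vector control and describe all samples as pools, and the design text says that the replicates were grown and harvested separately. If the controls were untransfected, as the label wild type reads, a change shared by both lines cannot be told apart from an effect of transfection itself. All cells were kept in medium with serum, antibiotics, insulin and EGF. Whether the pools of a group came from separate transfections, and which promoter drove the constructs in HC11 cells, is not given in the sources used here, so the p-values measure the spread between cultures and not between independently made lines.

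The deposited values are log2 expression values, each centred on the median of its transcript cluster over the 9 arrays. A value of 0 is therefore the middle array for that gene, and differences between samples can be read from the values while levels of expression, or levels of different genes, cannot be compared. Differences are log2 values of a transfected line minus those of the wild type cells, so that a positive one means higher in the transfected line and 1 is a change of 2-fold. They were tested two-sided with limma over all 17968 genes, and a gene was called at a Benjamini-Hochberg adjusted p under 0.05. Since all samples are bulk RNA, fewer cells with a transcript and less of it per cell cannot be told apart.

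In epithelia, matriptase and prostasin form a cascade at the cell surface. Matriptase can activate prostasin, pro-hepatocyte growth factor and pro-urokinase, and is held in check by the Kunitz-type inhibitors HAI-1 (Spint1) and HAI-2 (Spint2), which also assist its transport to the surface. Protease-activated receptors are G protein-coupled receptors that are switched on when a protease cuts their extracellular end. PAR1 (F2r) is the main receptor of thrombin, whereas PAR2 (F2rl1) is cut by trypsin-like proteases, among them matriptase. Tissue factor binds factor VIIa and so starts coagulation, and the complex can also cut PAR2.

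The labelled cell type and constructs were checked first. Of 8 mammary epithelial markers, all 8 were lower in FoxF1 cells (Krt5, Krt14, Krt8, Krt18, Cdh1, Trp63, Krt17 and Elf5, -7.35 to -1.68). In NFI-C2 cells 3 of them were lower, with Krt18 at -3.21, and Trp63 was higher at 0.77. Of 7 fibroblast markers, 4 were higher in FoxF1 cells, Pdgfrb most at 3.69, and Lum, Dcn and Thy1 were not called. Of the other markers, 1 of 3 for adipocytes was higher (Fabp4, 2.44), 1 of 4 for endothelium was higher and 1 lower (Kdr, 0.30, and Pecam1, -1.40), 1 of 4 for immune cells was higher (Cd68, 0.36), and of 3 for platelets 0 were called. In NFI-C2 cells Pdgfra (0.39) and Pecam1 (0.48) were higher and Dcn (-1.01) lower, and no other marker of these cell types was called. The part of these shifts in the differences below was not tested. Foxf1 had 0.32, 0.12 and 0.087 in FoxF1 cells, against 0.0074, 0 and -0.071 in wild type cells, a difference that was not called (0.20, adjusted p = 0.35), and in the NFI-C2 line the Nfic cluster differed by only -0.044 (adjusted p = 0.757). Foxf1 was lower in NFI-C2 cells than in wild type samples (-1.24, adjusted p = 7.60e-04) and higher in FoxF1 than in NFI-C2 cells (1.44, adjusted p = 8.70e-05), and Nfic was lower in FoxF1 cells (-0.26, adjusted p = 0.023). Neither gene was thus called higher than in wild type cells in the line transfected with it. The paper itself measured FoxF1 mRNA in these lines by RT-PCR and describes high FoxF1 expression alongside high LOX expression. The species and the part of the transcript that the constructs carry are not given in the sources used here. The clusters may therefore miss the transfected transcripts, and their values do not show whether the constructs were expressed. The spread of the values over clusters was wider in FoxF1 arrays (SD 0.528 to 0.539) than in NFI-C2 arrays (0.211 to 0.243) and wild type arrays (0.174 to 0.183).

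Of the 10 members, 8 were downregulated and 2 upregulated in FoxF1 cells. Across all genes tested, 40.7% were called in this comparison, 21.2% higher and 19.5% lower. The median difference of the members was -2.34, and that of all genes 0.0087. The largest decreases were those of Epcam, Spint2, St14 and Spint1, between 22.5- and 95.8-fold. F2r and Prss23 were higher, by 4.20- and 2.98-fold. These sizes depend on the scaling of the arrays. Quantile normalization was run on the deposited values, already centred per cluster, and gives all 9 arrays the same spread. By construction it narrows the wider FoxF1 arrays and widens the others, so it cannot tell a scaling effect from a real difference in spread. With it, all 10 calls and directions stayed. Epcam was then 13.4-fold lower (-3.74), St14 7.13-fold (-2.83), Spint2 6.75-fold (-2.75), Spint1 6.48-fold (-2.70) and Prss8 3.03-fold (-1.60). F2r was 2.77-fold higher (1.47). In NFI-C2 cells 5 of the 10 members were called, all lower, where 21.9% of all genes were called, 9.18% higher and 12.8% lower. These were F3, F2r, F2rl1, Prss23 and Spint1, and the median difference of the 10 members was -0.48 against 0.0015 for all genes. With a change of at least 1.5-fold as a further criterion, all 10 members were still counted with FoxF1, where 7.32% of all genes were higher and 9.27% lower, and 4 with NFI-C2 (all but Spint1), where 2.4% were higher and 2.82% lower.

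**Figure D1:**
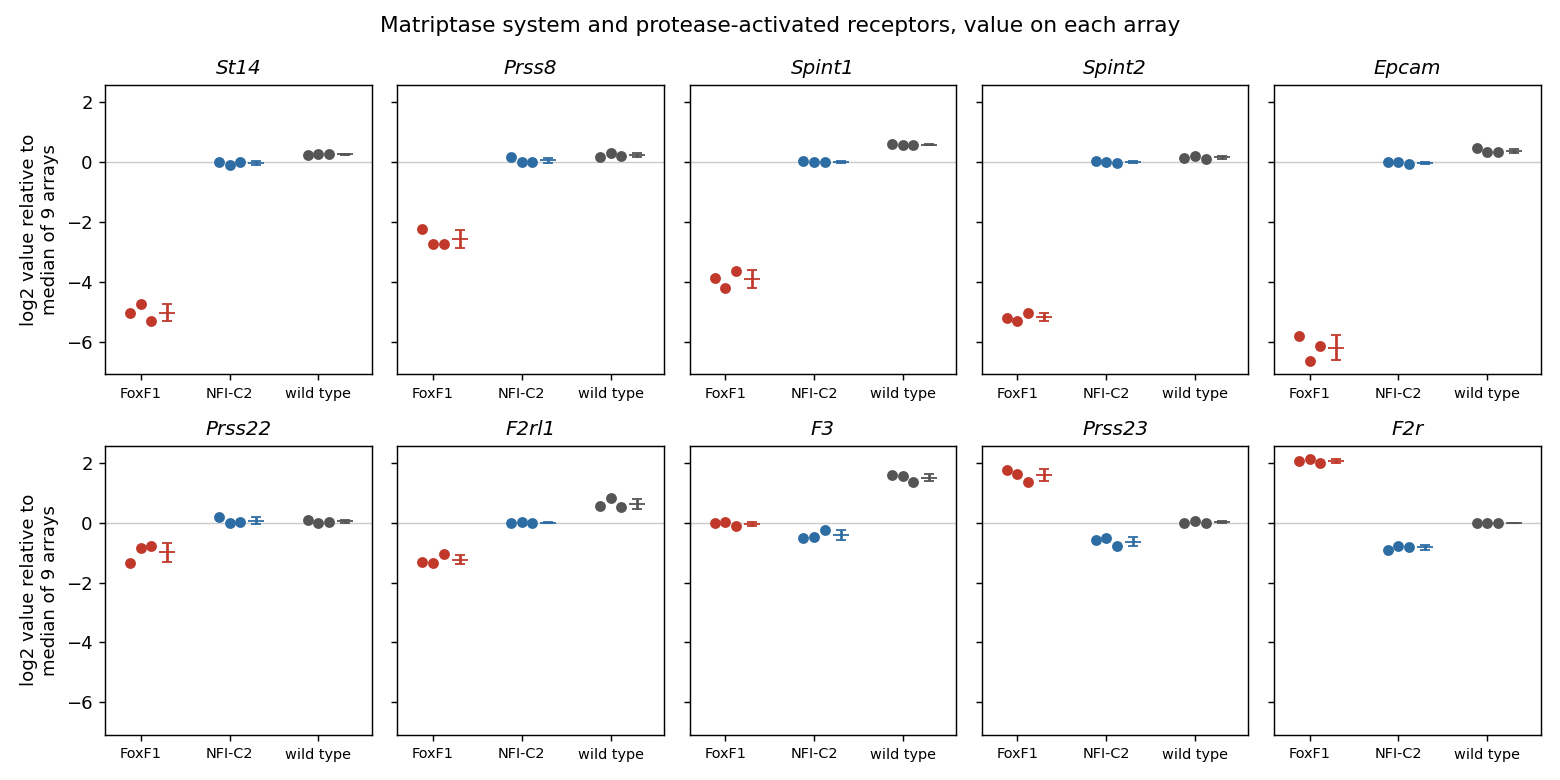
Each panel shows 1 member, with the log2 value relative to the median of the 9 arrays on the vertical axis and 1 point per array for FoxF1, NFI-C2 and wild type cells, beside the mean and SD of the 3 arrays. The FoxF1 points of St14, Spint2 and Epcam lie at -4.73 or lower, those of F2r at 2.00 or higher, and for F3 the wild type points lie above those of both transfected lines.

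Epcam, Spint2 and Spint1, 3 of the 4 members with the largest decreases, are shown with the sequence before their start, together with F2r as the member with the largest increase. The set of upstream sequences used holds 6 of the 10 members, and St14, Prss8, Prss22 and F2rl1, which lack an entry, were not searched. The sequences are the 250 bases upstream of the annotated transcription start, read on the gene's strand from RefSeq on GRCm38.p6. They were searched on both strands for CACCTG, an E-box bound by the repressors Zeb and Snail, for TGTTTAC, a forkhead motif, and for TTGGCA, the core of a nuclear factor I site. Capitals mark the matches, which appear as CAGGTG or TGCCAA where they lie on the other strand. Spint2 is at chr7:29281978-29282227 on the minus strand, Epcam at chr17:87635729-87635978 on the plus strand, Spint1 at chr2:119237110-119237359 on the plus strand and F2r at chr13:95618467-95618716 on the minus strand.
Epcam: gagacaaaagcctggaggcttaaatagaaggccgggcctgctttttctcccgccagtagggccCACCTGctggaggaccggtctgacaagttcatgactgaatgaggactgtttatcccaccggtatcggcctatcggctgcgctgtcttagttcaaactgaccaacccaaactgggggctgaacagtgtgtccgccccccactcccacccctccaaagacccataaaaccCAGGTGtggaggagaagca
Spint2: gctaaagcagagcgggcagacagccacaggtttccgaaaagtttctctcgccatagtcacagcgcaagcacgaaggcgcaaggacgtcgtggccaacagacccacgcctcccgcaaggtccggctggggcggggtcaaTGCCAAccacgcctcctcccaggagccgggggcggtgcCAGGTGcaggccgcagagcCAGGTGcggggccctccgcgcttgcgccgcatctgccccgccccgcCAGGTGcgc
Spint1: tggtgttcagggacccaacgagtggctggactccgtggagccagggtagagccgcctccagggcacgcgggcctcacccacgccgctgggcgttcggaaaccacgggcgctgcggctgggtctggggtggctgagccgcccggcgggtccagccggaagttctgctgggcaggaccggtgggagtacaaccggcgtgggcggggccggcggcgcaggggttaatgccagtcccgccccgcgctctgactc
F2r: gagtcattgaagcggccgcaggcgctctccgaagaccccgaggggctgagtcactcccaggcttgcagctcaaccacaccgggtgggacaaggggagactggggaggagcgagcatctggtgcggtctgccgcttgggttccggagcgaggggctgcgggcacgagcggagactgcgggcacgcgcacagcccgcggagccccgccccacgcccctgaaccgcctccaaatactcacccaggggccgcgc
Spint2 held 3 E-boxes, with first bases at -74, -55 and -9 relative to the start, and 1 nuclear factor I core at -112. Epcam held 2 E-boxes, at -187 and -19. No match to any of the 3 motifs was found in the windows of Spint1, F2r, Prss23 and F3. Prss23 has 7 annotated starts, of which only the most upstream was searched. Of 27025 windows of the same length in the table, 17.1% held the E-box, 3.06% the forkhead motif and 12.5% the nuclear factor I core. The windows of Spint1, F2r, F3 and Spint2 had 72.8, 70.8, 70.0 and 69.6% G and C, those of Epcam and Prss23 56.4 and 47.6%, where the median of all was 52.0%. A match to letters is not a bound site, and no binding was measured.

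St14, which encodes matriptase itself, lies on chromosome 9 (chr9:30896175-30939384, minus strand, in build NCBIM37, as are the other cluster positions). It had -5.06, -4.73 and -5.31 in the 3 FoxF1 samples, 0.0064, -0.10 and 0 in the NFI-C2 samples and 0.25, 0.28 and 0.27 in the wild type samples. All FoxF1 samples lay far below all others, and the NFI-C2 samples lay just below the wild type samples without overlap. St14 was 39.4-fold lower in FoxF1 cells (-5.30 ± 0.126, SE, adjusted p = 4.72e-08), which placed it 34 from the bottom among the 17968 genes, and 7.13-fold lower, at place 51, after quantile normalization. In NFI-C2 cells the difference was -0.30, with a 95% interval of -0.59 to -0.0039, and was not called (adjusted p = 0.154).

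Prss8 encodes prostasin, a GPI-anchored trypsin-like protease of epithelia (chr7:135069230-135073618, minus strand). Its values were -2.22, -2.74 and -2.75 in FoxF1 cells, 0.17, 0 and 0 in NFI-C2 cells and 0.18, 0.30 and 0.21 in wild type cells. As for St14, the FoxF1 samples stood apart, but the decrease was smaller, at 6.95-fold (-2.80 ± 0.14, adjusted p = 2.31e-06). NFI-C2 cells differed from wild type cells by -0.17 (95% interval -0.50 to 0.15, adjusted p = 0.485).

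Prss22 encodes tryptase epsilon, a secreted protease of airway and other epithelia (chr17:24130501-24135065, minus strand). It had -1.34, -0.83 and -0.77 in FoxF1 cells, 0.21, -0.011 and 0.015 in NFI-C2 cells and 0.11, 0 and 0.037 in wild type cells. FoxF1 sample 1 was lower than FoxF1 samples 2 and 3, and NFI-C2 and wild type samples overlapped. The difference was -1.03 ± 0.146 with FoxF1 (adjusted p = 7.75e-04) and 0.023 with NFI-C2 (95% interval -0.32 to 0.37, adjusted p = 0.99). Against a change of 1.5-fold rather than 0, the FoxF1 decrease did not pass (adjusted p = 0.08).

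Prss23, which encodes another serine protease (chr7:96656295-96675685, minus strand), moved the other way. It had 1.78, 1.64 and 1.37 in FoxF1 cells, -0.57, -0.52 and -0.78 in NFI-C2 cells and -0.0088, 0.057 and 0 in wild type cells. The 3 groups did not overlap, with FoxF1 samples highest and NFI-C2 samples lowest. Prss23 was upregulated 2.98-fold in FoxF1 cells (1.58 ± 0.109, adjusted p = 1.35e-05) and downregulated 1.56-fold in NFI-C2 cells (-0.64 ± 0.109, adjusted p = 0.0047). The paper already lists Prss23, from these arrays, among genes raised with FoxF1 and lowered with NFI-C2 by 1.5-fold or more. Its list also required a decrease with NFI-C2 in a breast cancer cell line.

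Both Kunitz-type inhibitors of matriptase were downregulated in FoxF1 cells together with the protease. Spint2, whose product HAI-2 also inhibits prostasin and whose upstream window holds 3 E-boxes, has its cluster at chr7:30041356-30066931 on the minus strand. It had -5.20, -5.32 and -5.04 in FoxF1 cells, 0.027, 0 and -0.022 in NFI-C2 cells and 0.14, 0.21 and 0.12 in wild type cells. The FoxF1 samples again lay apart, 40.5-fold below wild type cells (-5.34 ± 0.066, adjusted p = 3.03e-09). In NFI-C2 cells the difference was -0.15 (95% interval -0.31 to -0.00023, adjusted p = 0.159).

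Spint1, which encodes HAI-1, had -3.87, -4.22 and -3.64 in FoxF1 cells, 0.052, 0 and 0 in NFI-C2 cells and 0.60, 0.58 and 0.58 in wild type cells. No 2 groups overlapped. It was 22.5-fold lower in FoxF1 cells (-4.49 ± 0.127, adjusted p = 1.13e-07) and 1.48-fold lower in NFI-C2 cells (-0.57 ± 0.127, adjusted p = 0.016). Its cluster is annotated over 647070 bases of chromosome 2 (chr2:119063141-119710210, plus strand), far longer than the others, and 32 of its 36 probes lie on the Spint1 transcript. The NFI-C2 call was lost when any of 5 arrays was left out, NFI-C2 replicate 2 or 3 or any wild type replicate (adjusted p 0.051 to 0.061).

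Matriptase and its inhibitors were set against each other within each array. St14 minus Spint2 averaged 0.15 ± 0.43 in FoxF1 cells and 0.11 ± 0.043 in wild type cells (SD, n = 3 each), a difference of 0.041 (exact permutation test, two-sided, p = 0.8). St14 minus Spint1 averaged -1.13 ± 0.58 in FoxF1 cells and -0.32 ± 0.025 in wild type cells, and the samples did not overlap (-0.81, exact permutation p = 0.1). The smallest p that 3 samples against 3 can give is 0.1. The FoxF1 samples had -1.19, -0.51 and -1.67 for St14 minus Spint1, so that St14 lay further below its own median than Spint1 did in each of them, by varying amounts, whereas for St14 minus Spint2 the sign varied (0.14, 0.58 and -0.27).

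Epcam encodes an epithelial cell adhesion protein that matriptase can cut and that in humans is linked with SPINT2 through congenital diarrhoea (chr17:88035319-88050469, plus strand). It had -5.82, -6.65 and -6.15 in FoxF1 cells, 0, 0 and -0.063 in NFI-C2 cells and 0.46, 0.33 and 0.34 in wild type cells. The FoxF1 samples differed among themselves more than for any other member (SD 0.421) but stayed far below the rest. Of all members Epcam had the largest decrease with FoxF1, 95.8-fold (-6.58 ± 0.183, adjusted p = 1.05e-07), which placed it 6 from the bottom among the 17968 genes (13.4-fold and place 18 after quantile normalization). With NFI-C2 the difference was -0.40 (95% interval -0.83 to 0.032, adjusted p = 0.193), although all NFI-C2 samples lay below all wild type samples.

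The order of the FoxF1 decreases was Epcam, Spint2, St14, Spint1, Prss8, F2rl1, F3 and Prss22. In this order the 95% intervals of Spint2 (-5.50 to -5.19) and St14 (-5.60 to -5.01) overlapped, as did those of F2rl1 (-2.11 to -1.64) and F3 (-1.74 to -1.32) and those of F3 and Prss22 (-1.37 to -0.69). The intervals of Epcam and Spint2, of St14 and Spint1, of Spint1 and Prss8 and of Prss8 and F2rl1 did not overlap. The order held for the values as deposited. After quantile normalization it was Epcam (-3.74), St14 (-2.83), Spint2 (-2.75), Spint1 (-2.70), F3 (-1.88), Prss8 (-1.60), F2rl1 (-1.58) and Prss22 (-0.63).

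**Figure D2:**
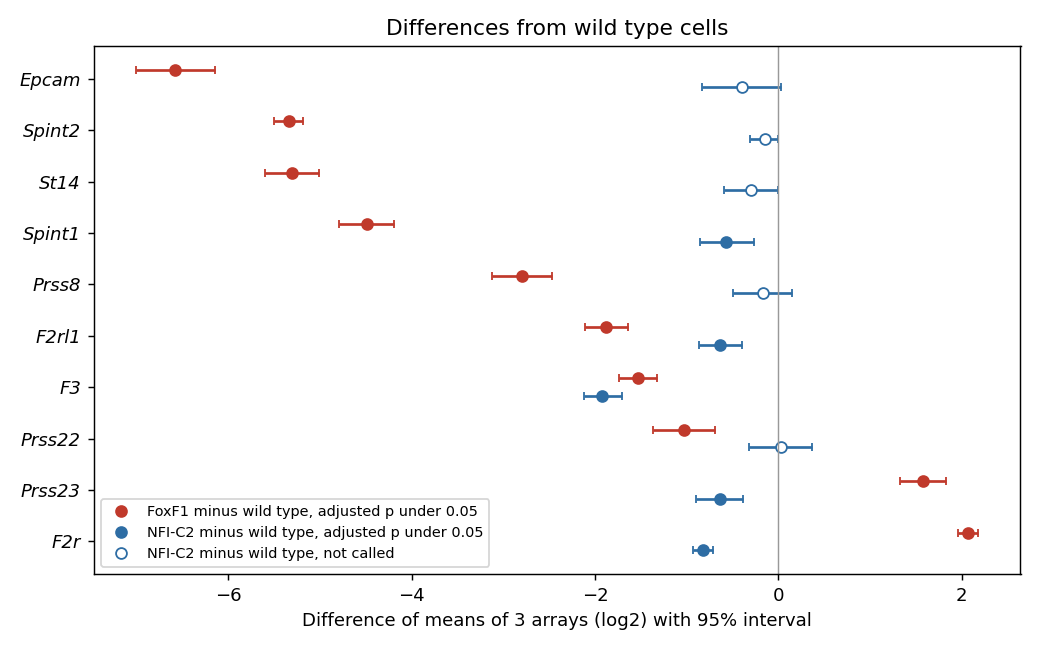
The horizontal axis gives the difference of the means of 3 arrays on the log2 scale with its 95% interval, 1 line per member, for FoxF1 minus wild type above NFI-C2 minus wild type, and open circles are differences that were not called. FoxF1 differences run from -6.58 for Epcam to 2.07 for F2r, whereas the largest NFI-C2 difference is that of F3 at -1.92.

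The 2 protease-activated receptors among the members moved in opposite directions in FoxF1 cells. F2r, the thrombin receptor PAR1, had 2.08, 2.14 and 2.00 in FoxF1 cells, -0.91, -0.76 and -0.79 in NFI-C2 cells and 0 in each wild type sample. FoxF1 samples were the highest and NFI-C2 samples the lowest, with no overlap. F2r was upregulated 4.20-fold with FoxF1 (2.07 ± 0.047, adjusted p = 3.79e-08) and downregulated 1.77-fold with NFI-C2 (-0.82 ± 0.047, adjusted p = 2.53e-05), where quantile normalization gave 3.03-fold (-1.60). Like Prss23, F2r is on the paper's list of genes raised with FoxF1 and lowered with NFI-C2. The 3 wild type values are equal to within 1e-06, as for 3033 of the genes tested, which narrows the standard error.

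F2rl1, which encodes PAR2, had -1.30, -1.34 and -1.05 in FoxF1 cells, 0, 0.03 and 0 in NFI-C2 cells and 0.58, 0.83 and 0.52 in wild type cells. Wild type samples were highest, NFI-C2 samples intermediate and FoxF1 samples lowest. It was 3.67-fold lower with FoxF1 (-1.88 ± 0.099, adjusted p = 3.04e-06) and 1.55-fold lower with NFI-C2 (-0.64 ± 0.099, adjusted p = 0.0032).

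Within each array, F2r minus F2rl1 was 3.38, 3.48 and 3.05 in FoxF1 cells, -0.91, -0.79 and -0.79 in NFI-C2 cells and -0.58, -0.83 and -0.52 in wild type cells. FoxF1 cells thus differed from wild type cells by 3.95 in the balance of the 2 receptors, without overlap (exact permutation p = 0.1, the smallest possible). This difference follows from those of F2r and F2rl1 given above and is no separate support for them. In NFI-C2 cells the difference was -0.19, and the samples overlapped (exact permutation p = 0.3).

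The 2 receptor genes are neighbours on chromosome 13, with F2rl1 at chr13:96281670-96295173 and F2r at chr13:96371744-96388429, both on the minus strand and 76570 bases apart. The genes beside them were looked up after the members' values had been seen. F2rl2 (PAR3), 78445 bases further at chr13:96466875-96472694 on the plus strand, had 0.064 with FoxF1 (adjusted p = 0.311) and 0.02 with NFI-C2 (adjusted p = 0.838). S100z and Iqgap2, which flank the pair, had 0.045 (adjusted p = 0.422) and -0.0087 (adjusted p = 0.728) with FoxF1. Of these 5 clusters only F2rl1 and F2r were called, but F2rl2, S100z and Iqgap2 shared their lowest value on 4, 7 and 8 of the 9 arrays. F2rl3 (PAR4), on chromosome 8, had -0.021 with FoxF1 (adjusted p = 0.951) and 0.14 with NFI-C2 (adjusted p = 0.44).

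F3 encodes tissue factor and was the member that changed most in NFI-C2 cells (chr3:121426455-121437966, plus strand). It had 0, 0.022 and -0.10 in FoxF1 cells, -0.52, -0.48 and -0.23 in NFI-C2 cells and 1.59, 1.56 and 1.38 in wild type cells. Both transfected lines lay well below wild type cells, with NFI-C2 samples lowest. A part of transfection itself in this shared decrease cannot be told apart. F3 was 2.89-fold lower with FoxF1 (-1.53 ± 0.089, adjusted p = 5.12e-06) and 3.77-fold lower with NFI-C2 (-1.92 ± 0.089, adjusted p = 1.07e-05), the last being 5.79-fold (-2.53) after quantile normalization. Counted from the largest decrease among all genes, F3 was number 28 with NFI-C2 and number 573 with FoxF1.

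All 10 members had no overlap between FoxF1 and wild type samples, as had 46.5% of all genes. For NFI-C2 and wild type samples 9 of 10 did not overlap, all lower, whereas 18.7% of all genes were lower without overlap, and of these 9 members 4 were not called (St14, Spint2, Prss8 and Epcam). The variance in the fit is shared by the 3 groups, and the FoxF1 samples of these members spread more widely. For St14 the SD was 0.287 in FoxF1 cells, 0.06 in NFI-C2 cells and 0.014 in wild type cells. With only NFI-C2 and wild type samples in the fit, St14, Spint2 and Epcam were called lower as well (adjusted p = 0.0053, 0.025 and 0.0053), which raised the count to 8 of 10. The share of all genes called lower in that fit is not given here, so the rise cannot be read as particular to the members.

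**Figure D3:**
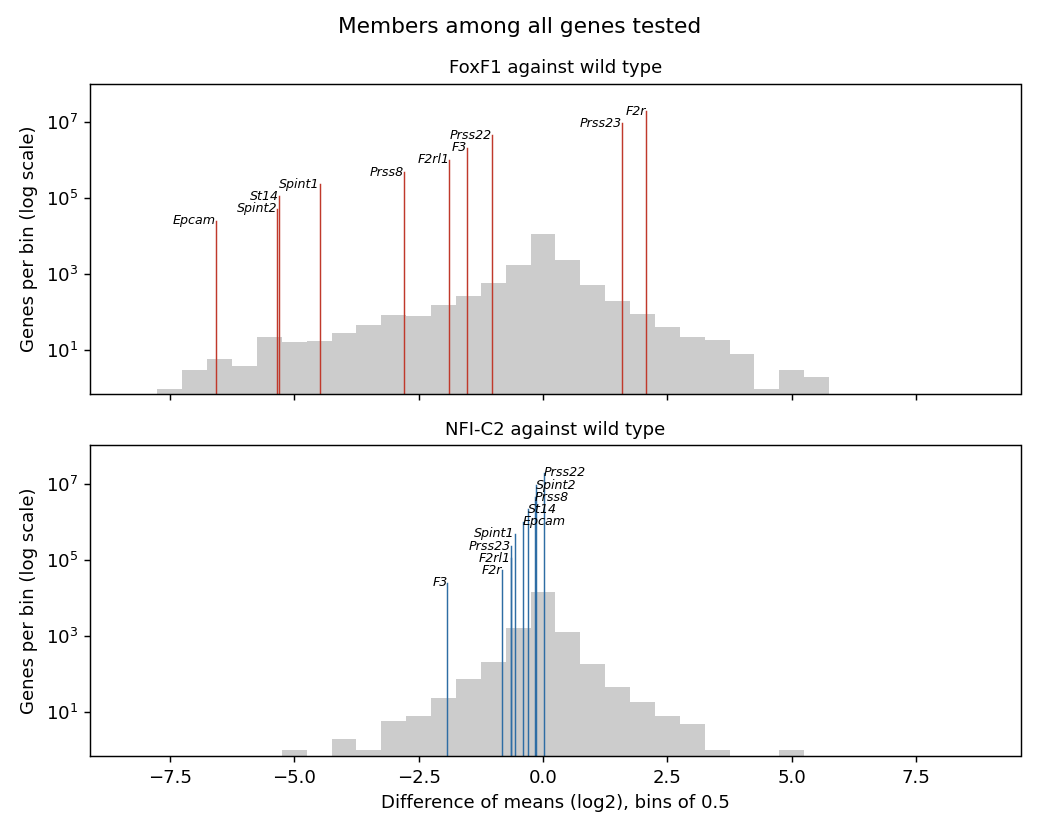
Grey bars count the 17968 genes tested in bins of 0.5 on the log2 difference, on a log scale, for FoxF1 minus wild type (upper panel) and NFI-C2 minus wild type (lower panel), and each coloured line marks a member at its difference. In FoxF1 cells the lines spread from the lower to the upper tail, and in NFI-C2 cells they gather at or below 0 with F3 in the lower tail.

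The direct comparison of the transfected lines called all 10 members, 7 lower and 3 higher in FoxF1 than in NFI-C2 cells, where 43.8% of all genes were called, 24% higher and 19.8% lower. St14, Spint1, Spint2, Prss8, Prss22, Epcam and F2rl1 were lower in FoxF1 cells (-6.19 to -1.05). Prss23 and F2r were higher in FoxF1 cells, by 2.22 (adjusted p = 1.74e-06) and 2.89 (adjusted p = 7.86e-09). F3 was 0.38 higher in FoxF1 cells (adjusted p = 0.0089), which is less than 1.5-fold, a criterion that 9.48% of all genes met as higher and 9.87% as lower. Quantile normalization brought the lowest of these differences, that of Epcam, to -3.13. It brought that of F3 to 0.65, which is 1.57-fold and so past the criterion. The wild type samples enter this comparison only through the shared estimate of the spread, whereas the other 2 comparisons also share the wild type means.

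Genes whose pattern over the 9 arrays was most like that of St14 were Zfp36l1 (Pearson r = 0.9993), Hgs (0.9992) and Map7 (0.9992). Of all genes, 6.24% had r of 0.95 or more with St14, Spint1, Spint2, Prss8 and Epcam among them at 0.99 or more. For F2r the closest were Arhgap29 (0.9993), Aebp1 (0.9989) and Glipr2 (0.9987), 6.1% of genes had r of 0.95 or more, and Prss23 had 0.99. Arhgap29 and Glipr2 are, like F2r and Prss23, on the paper's list of genes raised with FoxF1 and lowered with NFI-C2. F3 was like neither St14 (0.37) nor F2r (-0.05). The arrays fall into 3 groups, so the 9 points are not independent and the values only describe the shared pattern.

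Other genes of the pathway were counted in 8 lists. These counts are to be read against the shares of all genes called, 21.2% higher and 19.5% lower with FoxF1 and 9.18% higher and 12.8% lower with NFI-C2, and no list was tested against other genes. Of 14 other membrane-anchored or epithelial trypsin-like proteases tested, 2 were lower and 1 higher with FoxF1, and 3 were higher with NFI-C2. Tmprss13, which encodes a transmembrane serine protease related to matriptase, was lower with FoxF1 and higher with NFI-C2 (-1.18 and 1.31, adjusted p = 2.17e-04 and 4.14e-04), as was Tmprss4 (-0.45 and 0.47). Tmprss11d, which encodes the airway trypsin-like protease, was higher with NFI-C2 (0.78, adjusted p = 0.0094), and Tmprss11f was higher with FoxF1 (0.58, adjusted p = 0.0054). The other 10 were called in neither comparison, and the median of the list was 0.00 in both. Most of these 10 shared their lowest value on 7 or 8 of the 9 arrays. A change in them could hardly be seen, and the median says little. Other lists also hold genes tied at their lowest value on most arrays, for which the same limit applies.

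Of 6 Kunitz-type and related inhibitors, 3 were lower with FoxF1 (median of the list -0.51), and with NFI-C2 2 were lower and 1 higher (median -0.02). The called genes were the same 3 in both lines and are not of the Kunitz type. No Kunitz-type gene of the list was called in either line. Spink5 encodes LEKTI, an inhibitor of kallikreins in stratified epithelia. It had -5.07, -5.25 and -5.03 in FoxF1 cells, 1.64, 1.64 and 1.51 in NFI-C2 cells and 0, -0.023 and 0.058 in wild type cells. The FoxF1 decrease was close in size to those of St14 and Spint2 (-5.13, adjusted p = 3.09e-09), but NFI-C2 samples were higher than wild type samples (1.59, adjusted p = 6.55e-06). Wfdc2 and Slpi, which encode secreted inhibitors of another structural family, were lower in both lines (-1.86 and -0.99 with FoxF1, -0.70 and -0.59 with NFI-C2). Tfpi, the Kunitz-type inhibitor of the tissue factor complex, had 0.26 with FoxF1 and was not called (adjusted p = 0.107).

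Among 12 substrates and partners of matriptase and prostasin, 5 were lower and 2 higher with FoxF1 (median -0.01), and 3 were lower and 5 higher with NFI-C2 (median 0.10). Cdcp1, a surface protein cut by serine proteases, was lower with FoxF1 (-4.20, adjusted p = 5.59e-09). Cldn7, a tight junction claudin that binds EpCAM, was lower in both lines by similar amounts (-1.93 with FoxF1, -1.85 with NFI-C2), and the lines did not differ by the test (-0.073, 95% interval -0.29 to 0.15). Plau, which encodes urokinase, was higher in both (1.21 and 0.63), whereas its receptor gene Plaur was higher with FoxF1 (1.15) but lower with NFI-C2 (-0.63). Scnn1a and Scnn1g, subunits of the epithelial sodium channel that prostasin activates, were lower with FoxF1 (-0.51 and -0.46) and higher with NFI-C2 (0.68 and 0.67). Mst1, which encodes macrophage-stimulating protein, was higher with NFI-C2 (1.00, adjusted p = 3.60e-04), as was its receptor gene Mst1r (0.46). Met, the gene of the hepatocyte growth factor receptor, was lower in both lines (-0.42 and -0.57), and Hgf, Hgfac and Pdgfd were not called in either.

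**Figure D4:**
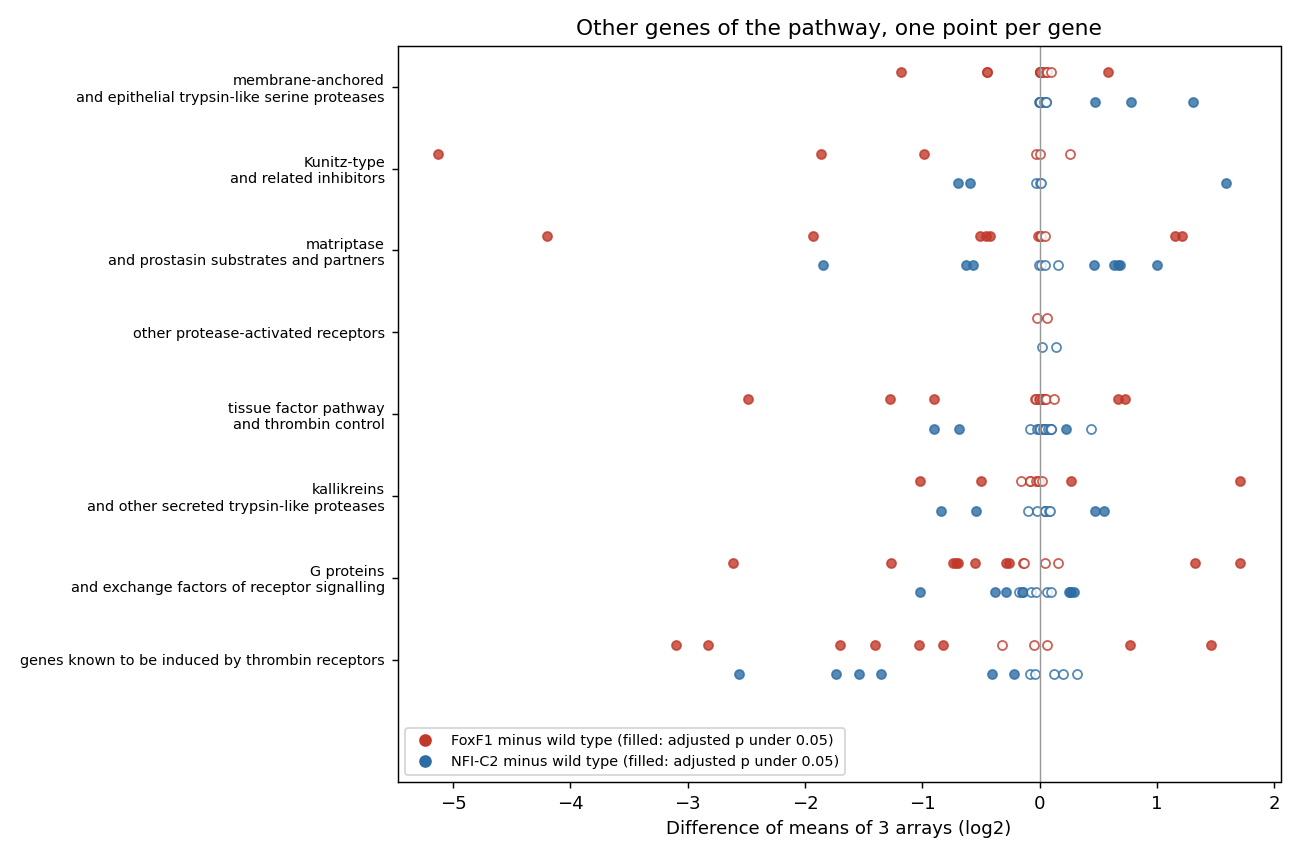
Each point is 1 gene of the 8 lists, placed by its difference of means on the log2 scale, with FoxF1 minus wild type in the upper and NFI-C2 minus wild type in the lower row of each list and filled points for called genes (many open points overlap near 0). Spink5 at -5.13 and Cdcp1 at -4.20 are the lowest FoxF1 points, and Spink5 at 1.59 is the highest NFI-C2 point.

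Of 16 genes of the tissue factor pathway and of thrombin control, 2 were higher and 3 lower with FoxF1 (median 0.01), and 1 was higher and 2 lower with NFI-C2 (median 0.04), where 40.7% and 21.9% of all genes were called. The genes of prothrombin (F2, 0.016 with FoxF1 and 0.041 with NFI-C2) and of factors VII and X were not called. Serpine2, which encodes protease nexin-1, an inhibitor of thrombin, was lower with FoxF1 (-2.49, adjusted p = 6.79e-08), as were Gas6 (-1.28) and F5 (-0.90). F5 was lower with NFI-C2 by the same amount (-0.90, adjusted p = 4.76e-04). Its values were 0, 0 and 0 in FoxF1 cells and -0.015, 0 and 0 in NFI-C2 cells. Both lines may thus lie at the lower limit of the measurement, and the equal amounts need not be equal decreases. Pros1, which encodes the anticoagulant protein S, was higher with FoxF1 (0.73) but lower with NFI-C2 (-0.69). Thbd, the gene of thrombomodulin, was higher with FoxF1 (0.67), and Procr, the gene of the protein C receptor, slightly higher with NFI-C2 (0.22, adjusted p = 0.013).

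Of 11 kallikreins and other secreted trypsin-like proteases, Htra1 and Plat were higher and Klk10 and Klk14 lower, in both lines (medians of the list -0.03 with FoxF1 and 0.05 with NFI-C2). Htra1 had 1.71 with FoxF1 and 0.55 with NFI-C2, and Plat, which encodes tissue plasminogen activator, 0.27 and 0.47. Klk14, whose product can activate PAR2, had -1.02 and -0.54, and Klk10 had -0.50 and -0.84.

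The signalling genes below the receptors were also counted. Of 14 G proteins, arrestins, exchange factors and phospholipases, 8 were lower and 2 higher with FoxF1 (median -0.28), and 4 were lower and 3 higher with NFI-C2 (median -0.05). In FoxF1 cells the Gq-family genes Gna14 (-2.61, adjusted p = 1.60e-06) and Gnaq (-1.27, adjusted p = 2.24e-07) were lower, whereas Plcb1, the gene of a phospholipase that Gq proteins activate, and Arrb1, that of a β-arrestin, were higher (1.71 and 1.32). Gna14 was lower with NFI-C2 too (-1.02), Plcb1 was lower (-0.38), Gna11 had -0.29 in both lines, and Arhgef12, a RhoA exchange factor gene, had -0.74 with FoxF1 and 0.29 with NFI-C2.

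Of 11 genes known to be induced through thrombin receptors, 6 were lower and 2 higher with FoxF1 (median -0.82), and 6 were lower and 0 higher with NFI-C2 (median -0.22). Il6, an inflammatory cytokine gene, had -0.59, -0.59 and -0.37 in FoxF1 cells, 0.046, 0 and 0 in NFI-C2 cells and 2.65, 2.55 and 2.54 in wild type cells. Both lines lay far below wild type cells (-3.10 with FoxF1, adjusted p = 2.56e-08, and -2.56 with NFI-C2, adjusted p = 5.88e-07). The chemokine genes Cxcl1 (-2.83 and -0.41) and Cxcl2 (-1.70 and -1.54) were lower in both lines as well. Ccn1 and Thbs1, which encode matricellular proteins, were higher with FoxF1 (1.46 and 0.77) but lower with NFI-C2 (-1.74 and -1.35). Thbs1 is also on the paper's list of genes that changed in these directions. Ptgs2 was lower with NFI-C2 (-0.22, adjusted p = 0.034) and had 0.06 with FoxF1. Thrombin and protease activity were not measured, and these genes respond to many other stimuli.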

How the data were processed

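Each of the 9 RNA samples, 3 per group, was measured on its own Affymetrix Mouse Gene ST array. For RNA preparation the labels name Trizol and the methods the GenElute kit. The authors deposited log2 expression values from RMA (named in the submitters' processing notes, with no version or settings), and tested on the values, all 28815 clusters have a median of 0 over the 9 arrays. A further deposited table of analysis of variance p-values was not used. Arrays have no read depth, and their number limits the precision.

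Clusters annotated with exactly 1 symbol were used (20731, on build NCBIM37, with symbols updated through Entrez IDs), taking the cluster with most probes where a gene had several, which gave 19230 genes. Constant genes (1262) were left out. The 3 group means were fitted with limma 3.58.1 in R 4.3.3 (eBayes without trend, 6 residual and 1.32 prior degrees of freedom), with Benjamini-Hochberg adjustment over 17968 genes. Intervals are at 95%. The fit was also tested on simulated data. Single values within arrays were tested with SciPy 1.17.1. The within-array differences between members were not among the planned comparisons, and their means follow from those of the single genes. The labels do not say that samples with equal replicate numbers share a batch, so the main fit has no block. Deviations from the group means correlated with r of -0.0041 to 0.18 in the 9 pairs with equal numbers. In pairs with unequal numbers r was -0.195 to 0.0997, so a shared effect of the replicate number is not excluded.

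The members and the lists were chosen with earlier results of these data known. Named are all members, up to 4 called genes per list with the largest FoxF1 change and 2 more for NFI-C2, both other protease-activated receptors, the 3 genes most like St14 and like F2r, and the marker and construct genes. Scnn1g, Met, Hgf, Hgfac, Pdgfd, Mst1r, Tfpi, F2, Thbd, S100z and Iqgap2 and the remaining markers were named after their values were seen. The list of matriptase substrates and partners was used without 1 of its genes, which is not reported here, and Scnn1b (constant) and Flg (no cluster) could not be tested. Alternatives were another normalization, filter, variance model, set of samples and null hypothesis.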

Additional observations from a re-analysis of the deposited data

How the results depend on the processing

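The 30 differences of the members were recomputed under 20 other settings, 600 values in all. Of these, 573 kept their direction and their side of the threshold, 11 lost their call, 13 gained one and 3 reversed. The reversals were all of Prss22 in NFI-C2 cells, which was not called in any of them (-0.046 without NFI-C2 replicate 1, -0.00093 without wild type replicate 2 and -0.0086 with quantile normalization, in a range of -0.046 to 0.064 with each array left out). The members called lower with NFI-C2 numbered 8 with only the 2 groups compared, 8 with a separate variance per group, 9 with quantile normalization and 2 with 1.5-fold in place of 0 as the null hypothesis (F2r and F3). The cause was not tested. For the fits with only the 2 groups, with separate variances and with quantile normalization, the share of all genes called lower is not given here. The counts under these settings are therefore no result about the members against other genes. Quantile normalization also moved sizes without changing FoxF1 calls. Run on the centred values, it narrows the spread of the FoxF1 arrays and widens that of the others by construction. It brought FoxF1 differences from wild type to -3.74 for Epcam (-6.58 as deposited), -2.83 for St14 (-5.30) and -1.60 for Prss8 (-2.80). NFI-C2 differences came to -1.60 for F2r (-0.82) and -1.19 for Prss23 (-0.64). With 1.5-fold as the null hypothesis, the counts over all genes were 752 higher and 1187 lower for FoxF1 against wild type cells (3806 and 3498 against 0), 139 and 184 for NFI-C2 against wild type cells (1649 and 2294), and 1003 and 1260 for FoxF1 against NFI-C2 cells (4304 and 3557).

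With each array left out in turn, the members called stayed at 8 lower and 2 higher for FoxF1 against wild type cells and at 7 lower and 3 higher for FoxF1 against NFI-C2 cells, and ranged from 4 to 7 lower with 0 higher for NFI-C2 against wild type cells. The counts over all genes ranged from 3393 to 3776 higher and 3142 to 3428 lower for FoxF1, from 1326 to 1640 and 1681 to 2232 for NFI-C2, and from 3964 to 4226 and 3271 to 3492 between the lines. St14 and Epcam were called lower with NFI-C2 without FoxF1 replicate 2 (adjusted p = 0.022 each), and Spint2 without FoxF1 replicate 3 (adjusted p = 0.038). With the replicate number as a block, 5 members were lower with NFI-C2 and 8 lower and 2 higher with FoxF1. Of all 17968 genes, 3887 were then higher and 3501 lower with FoxF1, and 1665 higher and 2364 lower with NFI-C2. The block changed no call of a member.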
